A study of Mus musculus with 8 samples.

Results

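The genes described here are 10 markers of the uterine epithelium, *Cdh1*, *Epcam*, *Krt7*, *Krt8*, *Krt18*, *Krt19*, *Foxa2*, *Ltf*, *Muc1* and *Cldn4*, looked at in stromal cells. They were chosen by name, as genes of another compartment of the uterus, and make up 10 of the 21951 protein-coding genes in the GENCODE M21 annotation of mm10. A gene was counted as having a promoter peak when a peak overlapped the 2000 bp on either side of any of its annotated transcription start sites (TSSs), and a gene body peak was one that overlapped the gene outside these windows.

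The data are peak lists of ChIC-Seq, in which an antibody brings a micrococcal nuclease to the chromatin that its antigen occupies, and the fragments that the nuclease releases are sequenced. One antibody was against PBRM1 (BAF180), a subunit particular to the PBAF form of the SWI/SNF remodeling complex, and the other against BRG1, an ATPase of the complex that is not limited to that form. Each was used in 3 replicates on primary stromal cells of the uterus, taken on D4 from WT mice aged 8 to 12 weeks. The labels give both pregnancy and pseudopregnancy for these mice. Uterine horns of 5 to 10 mice were pooled, cells were plated for 4 h and kept in fresh medium for 2 h, and 50000 cells per library were fixed for 5 min according to the labels. No other genotype, day or hormone treatment was in these lists, so that both groups share all of these. By the labels they differ in the antibody, but whether both antibodies were used on the same cells is not stated. Fragment length also differed, with 177 to 188 bp in the PBRM1 replicates and 149 to 154 bp in the BRG1 replicates. An effect of the antibody cannot be told apart from other differences between the libraries. The labels do not say whether the replicates came from separate pools of mice, so the spread between them may be technical. The methods describe a check of stromal purity by staining for vimentin and cytokeratin, and the peak lists themselves hold no expression values.

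The PBRM1 replicates held 8868777 to 16505239 fragments and gave 21912 to 26363 peaks, and the BRG1 replicates held 11506964 to 14595089 fragments and gave 36656 to 40610 peaks. A separate call on the pooled fragments gave 55119 peaks for PBRM1 and 82669 for BRG1. Fold enrichment is the authors' ratio of the pileup at a summit to the local background of the same library, since no control library entered the calls, and a fold printed here is that of the peak with the lowest q-value in a gene's promoter windows. A gene without a peak has no value in these lists. A weak peak in all cells and a strong one in some of them cannot be told apart in such bulk libraries.

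Epithelial cells are held together by adherens and tight junctions and by intermediate filaments of paired keratins, a type II such as KRT7 or KRT8 with a type I such as KRT18 or KRT19. In the uterus these genes mark the luminal and glandular epithelium, and mesenchymal cells keep many of them low through E-box binding repressors of the SNAI, ZEB and TWIST families. SWI/SNF complexes slide and evict nucleosomes at promoters and enhancers, and their presence at a gene does not by itself say that the gene is on.

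The sequences below show the ground on which the peaks of 7 of these genes lay, or did not lay, in mm10 (GRCm38.p6, from RefSeq), each 5′ to 3′ on the strand of the gene. For *Krt7*, *Krt18*, *Epcam*, *Ltf* and *Cldn4* they are the 200 bases before the TSS, and for *Krt8* and *Muc1* the 201 bases centred on a pooled peak away from the TSS. Capitals mark matches to any of 6 motifs searched on both strands, which are spelled out after the sequences. *Krt7* and *Krt18* are shown because their peaks lay at the start site, *Krt8* because its peak lay in intron 1, *Muc1* for its distant upstream peak, and *Epcam*, *Ltf* and *Cldn4* because the replicates found little or nothing there.
*Krt7*, 200 bases before the TSS, chr15:101412202-101412401, plus strand: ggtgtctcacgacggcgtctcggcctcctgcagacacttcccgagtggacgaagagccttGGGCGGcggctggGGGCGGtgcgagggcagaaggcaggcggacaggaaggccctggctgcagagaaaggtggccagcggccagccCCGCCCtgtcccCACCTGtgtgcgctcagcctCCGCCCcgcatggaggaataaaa
*Krt18*, 200 bases before the TSS, chr15:102027980-102028179, plus strand: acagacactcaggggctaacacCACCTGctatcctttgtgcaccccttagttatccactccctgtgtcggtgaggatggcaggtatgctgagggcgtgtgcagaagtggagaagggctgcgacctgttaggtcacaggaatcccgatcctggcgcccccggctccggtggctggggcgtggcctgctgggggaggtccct
*Krt8*, intron 1 peak, chr15:102003110-102003310, minus strand: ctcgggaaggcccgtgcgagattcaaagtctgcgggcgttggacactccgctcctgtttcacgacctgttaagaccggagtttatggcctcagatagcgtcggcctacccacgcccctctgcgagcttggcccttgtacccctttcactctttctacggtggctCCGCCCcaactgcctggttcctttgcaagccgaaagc
*Muc1*, upstream peak, chr3:89227508-89227708, plus strand: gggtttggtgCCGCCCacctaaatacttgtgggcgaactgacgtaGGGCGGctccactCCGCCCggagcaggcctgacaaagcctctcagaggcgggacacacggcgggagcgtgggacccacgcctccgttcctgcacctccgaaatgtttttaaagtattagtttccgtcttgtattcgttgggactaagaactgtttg
*Epcam*, 200 bases before the TSS, chr17:87635779-87635978, plus strand: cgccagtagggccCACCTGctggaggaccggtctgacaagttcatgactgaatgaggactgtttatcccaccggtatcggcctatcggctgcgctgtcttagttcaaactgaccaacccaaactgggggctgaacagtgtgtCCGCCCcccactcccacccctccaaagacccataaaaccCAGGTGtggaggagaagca
*Ltf*, 200 bases before the TSS, chr9:111019071-111019270, plus strand: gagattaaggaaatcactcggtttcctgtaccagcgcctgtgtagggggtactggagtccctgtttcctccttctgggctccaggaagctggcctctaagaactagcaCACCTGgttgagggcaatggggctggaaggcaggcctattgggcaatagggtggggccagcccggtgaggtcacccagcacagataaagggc
*Cldn4*, 200 bases before the TSS, chr5:134946935-134947134, minus strand: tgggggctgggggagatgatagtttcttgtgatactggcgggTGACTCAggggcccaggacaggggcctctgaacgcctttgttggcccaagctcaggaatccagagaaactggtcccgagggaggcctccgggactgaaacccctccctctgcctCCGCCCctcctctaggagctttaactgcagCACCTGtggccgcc

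Each motif was searched as exact letters in the 300 bases from 250 before to 50 after the RefSeq start, for the 8 genes with an entry in the RefSeq promoter table (*Cdh1* and *Krt19* had none). The E-box bound by SNAI and ZEB factors, CAGGTG, was in the promoters of 7 of these 8 genes (all but *Foxa2*), beside 20.2% of all 32817 promoters of this length. The SP/KLF box GGGCGG was in 5 of 8 (*Epcam*, *Krt7*, *Foxa2*, *Muc1* and *Cldn4*), beside 35.6% of all promoters. The others were rarer, with the grainyhead motif AACCNGTT in *Muc1* alone (2.08% of all promoters), the AP-1 motif TGANTCA in *Cldn4* alone (7.81%), the ETS motif CCGGAA in *Foxa2* alone (14.9%), and the forkhead motif TGTTTAC in none (3.65%). In windows of 201 bases around all summits, CAGGTG was found in 16.4% of pooled PBRM1 peaks and 15.5% of pooled BRG1 peaks. The windows shown for the *Krt8* and *Muc1* peaks held GGGCGG and no CAGGTG. A match describes letters and not a bound site, and no factor's binding was measured here.

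The pooled lists had a promoter peak at nearly all epithelial marker genes, and single replicates at 3 to 8 of the 10. The pooled PBRM1 list had one at 9 of 10, beside 68.7% of all protein-coding genes, and the pooled BRG1 list at 10 of 10, beside 72.1%. Among the PBRM1 replicates, 3, 5 and 5 of the 10 genes had a promoter peak in replicates 1, 2 and 3, where 60.0%, 60.7% and 55.3% of all genes had one. Among the BRG1 replicates the counts were 8, 5 and 8, where 66.1%, 65.1% and 65.0% of all genes had one. All 3 PBRM1 replicates had a promoter peak at 2 genes (52.2% of all genes), all 3 BRG1 replicates at 5 genes (61.4%), and all 6 replicates at 2, *Krt7* and *Muc1* (51.9%). The peaks of a gene did not have to overlap between replicates for this count. At least 1 of the 6 replicates had one at 9 genes (70.4%).

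The genes therefore fell between the extremes that most of the genome occupied. Of all protein-coding genes, 29.6% had a promoter peak in none of the 6 replicates and 51.9% in all 6, which left 18.5% with a peak in 1 to 5 of them. Of the 10 epithelial marker genes, 7 had a peak in 1 to 5 replicates, 2 in all 6 and 1, *Cldn4*, in none. *Cdh1* and *Krt8* were found in 5, *Krt18* in 4, *Epcam* in 3, *Krt19* and *Foxa2* in 2 and *Ltf* in 1.

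**Figure D1:**
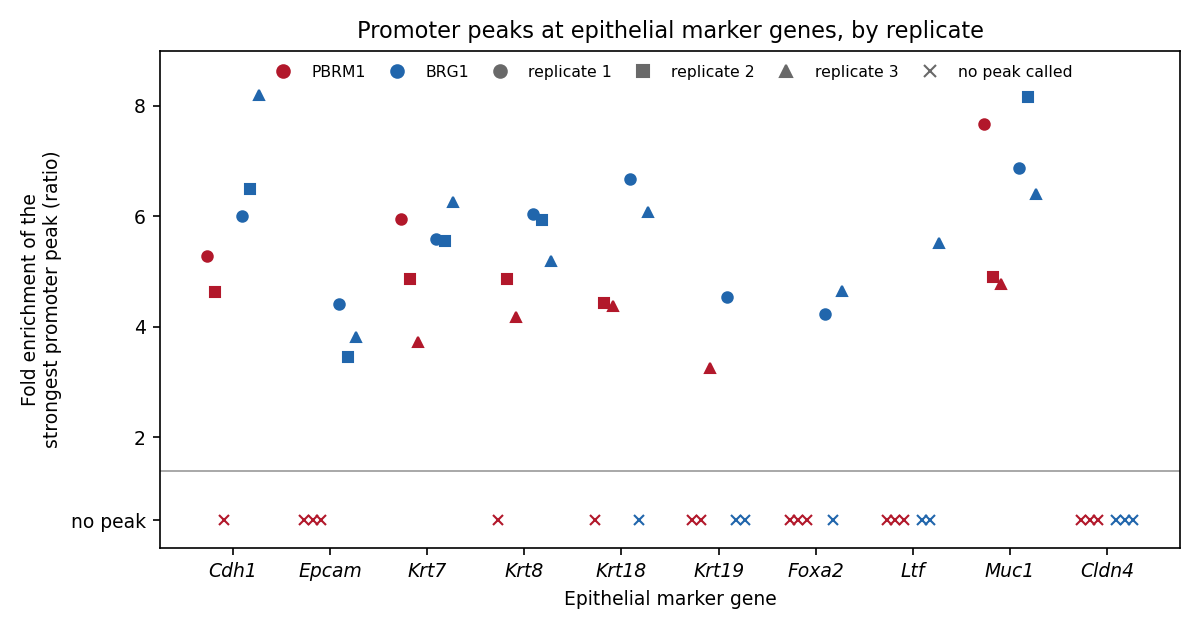
Fold enrichment of the strongest promoter peak (a linear ratio over local background) at each of the 10 epithelial marker genes in every replicate, with PBRM1 in red and BRG1 in blue; crosses on the lowest row are replicates without a peak. *Krt7* and *Muc1* had a value in all 6 replicates and *Cldn4* in none.

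Among the cell adhesion genes, *Cdh1* was the most strongly covered by BRG1. *Cdh1* (ENSMUSG00000000303, chr8:106603351-106670246, plus strand) encodes E-cadherin, the adhesion protein of adherens junctions. Its fold enrichment at the promoter was 5.28 and 4.63 in PBRM1 replicates 1 and 2, and PBRM1 replicate 3 had no peak there. That replicate held the most fragments of its antibody but gave the fewest peaks, 21912. In BRG1 replicates 1, 2 and 3 it was 6.00, 6.49 and 8.20, a mean of 6.90 ± 1.15 (SD, n = 3). Every BRG1 value thus lay above both PBRM1 values, although ratios taken within different libraries are not strictly comparable. The BRG1 summits lay from 36 bp before to 10 bp after the TSS and the PBRM1 summits 135 and 201 bp after it, in exon 1 and intron 1. The pooled values were 4.71 for PBRM1 and 7.97 for BRG1.

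*Cdh1* was the only one of the 10 genes with gene body peaks, beside 29.0% of all genes in the pooled PBRM1 list and 36.4% in the pooled BRG1 list. It is also the longest of the 10, at 66896 bp. *Cldn4*, at 1816 bp, lies wholly inside its promoter window and could hold no such peak. *Krt18*, *Foxa2* and *Muc1* are also short, at 3848, 4093 and 4325 bp. Gene length was not matched in this comparison. *Cdh1* had 2 such peaks for PBRM1 and 4 for BRG1. At 3 of the 4 BRG1 sites and at both PBRM1 sites the peak lay in intron 2. The site best carried by the replicates spanned chr8:106622942-106623510 in the pooled BRG1 list, with its summit 19720 bp after the TSS. There the fold enrichment was 3.92 for pooled BRG1 and 3.22 for pooled PBRM1, and 4.05 in PBRM1 replicate 2, 4.80 in BRG1 replicate 1 and 4.30 in BRG1 replicate 3. The other 3 replicates had no peak at that site.

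*Epcam* (ENSMUSG00000045394, chr17:87635979-87651129, plus strand), which encodes an adhesion molecule of epithelial cell surfaces, had peaks in BRG1 replicates only. Its fold enrichment was 4.41, 3.46 and 3.82 in BRG1 replicates 1, 2 and 3 (mean 3.90 ± 0.483, SD, n = 3), with none in the PBRM1 replicates. The 3 summits did not coincide and lay 1099, 419 and 779 bp after the main TSS, in introns 1 and 2 and an untranslated part of exon 2. The peak of BRG1 replicate 2 overlapped neither of the others, so the mean does not describe a single site. By −log10 q-value the peaks of BRG1 replicates 2 and 3 were weak, at 1.96 and 2.83, beside 5.05 in BRG1 replicate 1. The pooled PBRM1 list had a peak of 3.42 with its summit 58 bp before the TSS, inside the *Epcam* sequence shown, while the pooled BRG1 peak of 4.13, which spanned the TSS, had its summit at 1090 bp.

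The keratin genes differed among themselves in strength and in where their peaks lay. *Krt7* (ENSMUSG00000023039, chr15:101411043-101430313, plus strand), a type II keratin of simple epithelia, had a promoter peak in all 6 replicates. Its fold enrichment was 5.96, 4.87 and 3.73 in PBRM1 replicates 1, 2 and 3 (mean 4.85 ± 1.11, SD, n = 3). In BRG1 replicates 1, 2 and 3 it was 5.60, 5.56 and 6.27 (mean 5.81 ± 0.399, SD, n = 3). The ranges of the antibodies overlapped through PBRM1 replicate 1. All summits lay from 72 bp before to 233 bp after the TSS of the basic GENCODE protein-coding transcript, and the peak reached into the *Krt7* sequence shown in every replicate, in BRG1 replicate 3 by its last base only.

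*Krt8* and *Krt18*, whose products pair with each other in the filaments of simple epithelia, lie 23698 bp apart, start to start, on chromosome 15. At *Krt8* (ENSMUSG00000049382, chr15:101996698-102004482, minus strand) the replicate peaks lay in intron 1, with summits 1074 to 1391 bp after the TSS, and not at the start itself. The fold enrichment there was 4.87 and 4.18 in PBRM1 replicates 2 and 3, with no peak in PBRM1 replicate 1. In BRG1 replicates 1, 2 and 3 it was 6.04, 5.93 and 5.20 (mean 5.72 ± 0.458, SD, n = 3), so that every BRG1 value lay above both PBRM1 values. At the *Krt8* TSS the only peak was a weak one in the pooled PBRM1 list, 41 bp after the start, with a fold enrichment of 2.31.

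At *Krt18* (ENSMUSG00000023043, chr15:102028180-102032027, plus strand) the peaks lay at the start instead. The fold enrichment was 4.44 and 4.38 in PBRM1 replicates 2 and 3 and 6.67 and 6.08 in BRG1 replicates 1 and 3, and PBRM1 replicate 1 and BRG1 replicate 2 had none. In 3 of these 4 replicates the summit lay 34 to 40 bp before the TSS, within the *Krt18* sequence shown, and in PBRM1 replicate 2 it lay 212 bp after it, in coding exon 1. The pooled fold enrichments of 4.90 for PBRM1 and 6.64 for BRG1 were close to those at *Krt7* (4.57 and 6.21) and *Krt8* (4.52 and 5.63).

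*Krt19* (ENSMUSG00000020911, chr11:100140810-100148665, minus strand), a type I keratin of luminal and glandular epithelium, was the weakest of the keratin genes. It had peaks in PBRM1 replicate 3, with a fold enrichment of 3.26, and in BRG1 replicate 1, with 4.55, and the other 4 replicates had none. None of its peaks lay at the start of its basic GENCODE transcript. One site lay upstream, with summits 1675 to 1816 bp before that start and within the annotated span of a longer transcript, and it was found with both antibodies. Another lay in intron 1, 823 and 889 bp after the start, and was found with BRG1 alone. Pooled PBRM1 reached 2.98 at *Krt19* and pooled BRG1 4.28.

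*Foxa2* (ENSMUSG00000037025, chr2:148042877-148046969, minus strand) encodes the forkhead factor required for uterine glands. It had a promoter peak in BRG1 replicates 1 and 3, with fold enrichments of 4.23 and 4.65, and in no PBRM1 replicate. Both summits lay in intron 1, 491 and 550 bp after the TSS. The pooled BRG1 list placed its strongest peak there as well, at 4.51. The single pooled PBRM1 peak, at 2.95, lay 2334 bp after the main TSS, in coding exon 3, and counted through the start of another transcript.

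The genes of the luminal surface and its secretions included the one with the highest pooled PBRM1 fold enrichment of the 10, *Muc1*, and the one without a pooled PBRM1 peak, *Ltf*. *Muc1* (ENSMUSG00000042784, chr3:89229057-89233381, plus strand) encodes the mucin of the apical epithelial surface. Its fold enrichment was 7.67, 4.91 and 4.77 in PBRM1 replicates 1, 2 and 3 (mean 5.78 ± 1.63, SD, n = 3). It was 6.87, 8.17 and 6.41 in BRG1 replicates 1, 2 and 3 (mean 7.15 ± 0.912, SD, n = 3). The ranges overlapped through PBRM1 replicate 1. The site common to all 6 replicates was not at the *Muc1* start. Its summits lay 1457 to 1573 bp before the *Muc1* TSS and only 396 to 512 bp from a TSS of the neighbouring gene *Mtx1*, which encodes a mitochondrial outer membrane protein and runs the other way. When a peak counted only for the gene with the TSS nearest to its summit, *Muc1* lost this site and 1 of the 10 genes, *Krt7*, had a promoter peak in all 6 replicates, beside 43.6% of all genes under that rule.

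A further site 772 bp before the *Muc1* TSS had a fold enrichment of 7.12 in the pooled BRG1 list and 5.55 in BRG1 replicate 1. It is nearer to *Muc1* than to *Mtx1*, whose closest TSS lay 1197 bp away. The lists of the other BRG1 replicates and of all PBRM1 replicates held no peak at that site. Its pileup was 129 fragments in the pooled list and 40 in BRG1 replicate 1.

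*Ltf* (ENSMUSG00000032496, chr9:111019271-111042767, plus strand) encodes lactotransferrin, a secreted protein of the uterine epithelium that responds to E2. A peak stood at its promoter in BRG1 replicate 3 alone, with its summit 42 bp before the TSS, inside the *Ltf* sequence shown, and a fold enrichment of 5.52. The pooled BRG1 list had no peak at that start, and its *Ltf* peak of 4.27 lay 8861 bp after it, in intron 5, near the TSS of a transcript outside the basic GENCODE set. The pooled PBRM1 list had none, and with basic transcripts only the pooled BRG1 count was 9 of 10 beside 70.8% of all genes.

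*Cldn4* (ENSMUSG00000047501, chr5:134945119-134946934, minus strand), which encodes a claudin of tight junctions, had no promoter peak in any replicate. The pooled lists had weak ones, with a fold enrichment of 2.98 for PBRM1 669 bp after the TSS, 2.65 for PBRM1 47 bp before it and 3.50 for BRG1 228 bp before it. The absence from the replicate lists says that no peak was called at their depth.

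**Figure D2:**
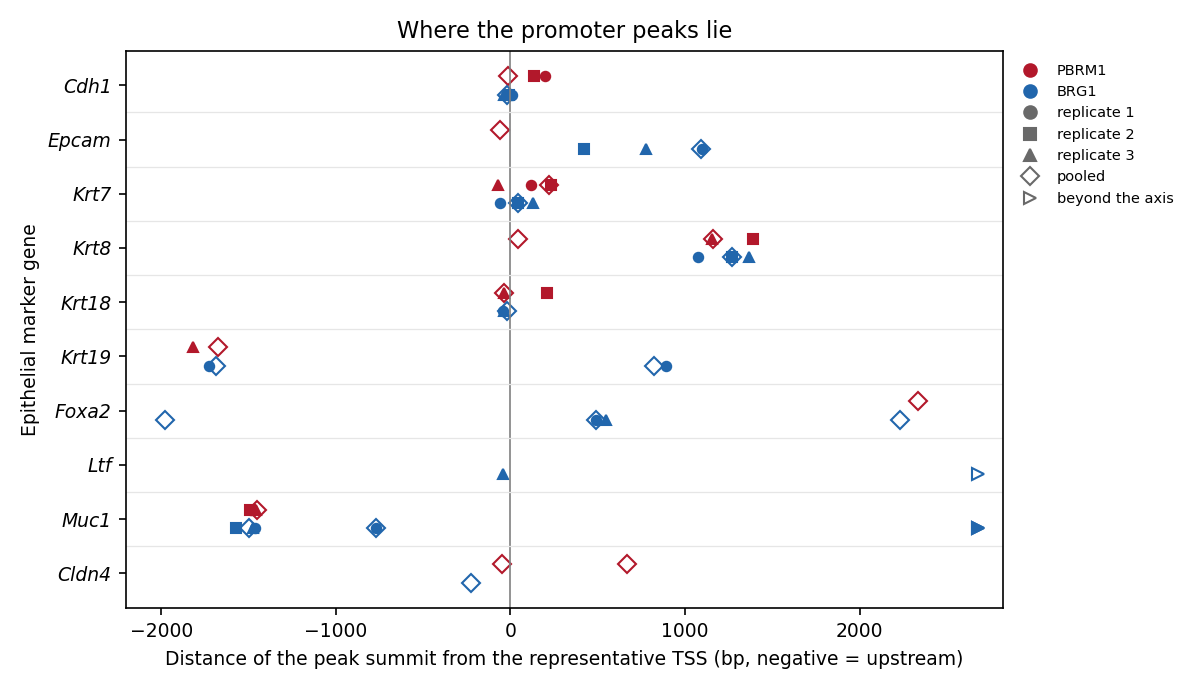
Distance in bp of each promoter peak's summit from the representative TSS of the 10 epithelial marker genes (negative is upstream), with PBRM1 in red above BRG1 in blue, filled symbols for replicates and open diamonds for the pooled lists; triangles pointing right at the edge are summits beyond the axis at *Ltf* (8861 bp) and *Muc1* (4623 and 4645 bp). Summits lay around the start at *Cdh1*, *Krt7* and *Krt18*, and away from it at *Krt8*, *Krt19* and *Muc1*.

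Together the 10 genes had 11 pooled PBRM1 promoter peaks and 15 pooled BRG1 promoter peaks. Of the PBRM1 peaks, 9 overlapped a pooled BRG1 peak, and of the BRG1 peaks 10 overlapped a pooled PBRM1 peak. Among the promoter peaks of all protein-coding genes the shares were 92.1% and 76.3%. Of the pooled summits, 6 of 11 for PBRM1 and 5 of 15 for BRG1 lay within 500 bp of the representative TSS. The same share was not computed for the promoter peaks of all genes, so these counts do not say whether such positions are unusual.

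Most of these promoter peaks were weak beside those of other genes. With genes without a peak set to 0, the median pooled fold enrichment over all protein-coding genes was 5.29 for PBRM1 and 6.84 for BRG1, and over the 10 genes 3.97 and 5.07. Low medians were not particular to these 10. Every other gene list described below also had medians under those of all genes, among them the 24 stromal genes with 4.08 and 5.09. The CpG content of the promoters was not matched in this comparison. Of the 10 genes, 9 lay below the median of all genes for PBRM1 and 8 for BRG1. *Muc1* was above it for PBRM1, where 57.9% of all genes had a lower value, and *Cdh1* and *Muc1* were above it for BRG1, where 58.4% and 51.9% had a lower value. At the other end, *Foxa2*, *Cldn4* and *Krt19* had PBRM1 values exceeded by nearly all genes with a peak, of which 1.28%, 1.38% and 1.56% lay lower. For BRG1 the lowest was *Cldn4*, with 3.23% of the genes with a peak below it.

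The comparison of the antibodies asked whether peaks at these genes were carried by PBRM1 as much as by BRG1. Over the 10 genes and 3 replicates, PBRM1 had a promoter peak in 13 of 30 cases (43.3%) and BRG1 in 21 of 30 (70.0%). Over all protein-coding genes the shares were 58.7% ± 2.90 and 65.4% ± 0.590 (SD, n = 3 each). The difference over all genes, PBRM1 minus BRG1, was −6.74 percentage points (two-sided exact permutation test, p = 0.100, which 3 against 3 replicates cannot go below), with every PBRM1 replicate below every BRG1 replicate. The BRG1 lists are longer, and among the 10000 strongest peaks of each replicate the difference was −1.07 (two-sided exact permutation test, p = 0.400) and the replicates overlapped. At 5 of the 10 genes (*Cdh1*, *Epcam*, *Krt8*, *Foxa2* and *Ltf*) more BRG1 than PBRM1 replicates had a peak, beside 15.4% of all genes, and at none was it the other way, beside 1.45%. Among genes with a peak in 1 to 5 replicates, more BRG1 replicates had one at 5 of the 7 markers (71.4%) and at 83.3% of all such genes. Promoter peaks of BRG1 replicates without any in PBRM1 replicates stood at *Epcam*, *Foxa2* and *Ltf*, 3 of 10, beside 5.74% of all genes. Among genes with a peak in 1 to 5 replicates these were 3 of the 7 markers and 1261 of all 4068. No test was run over the 10 genes.

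Within a list, a peak was also ranked by its −log10 q-value. At *Krt7* the rank was 11938, 15154 and 19106 in PBRM1 replicates 1, 2 and 3 and 19263, 18863 and 16403 in BRG1 replicates 1, 2 and 3, where 1 is the strongest peak. The ranks overlapped, with PBRM1 replicates 1 and 2 ahead of every BRG1 replicate. As percentiles among all peaks of a list the order was the other way, and the PBRM1 replicates averaged 34.4 ± 19.0, the BRG1 replicates 52.5 ± 3.91 (SD, n = 3 each), a difference of −18.0 (two-sided exact permutation test, p = 0.100, adjusted over 2 genes 0.100), and −7.21 without PBRM1 replicate 3. When every list was cut to its 21912 strongest peaks, the length of the shortest (an alternative added after the data were seen), the means were 29.7 ± 16.4 and 17.0 ± 7.07 and the difference 12.7 (two-sided exact permutation test, p = 0.300). The direction at *Krt7* turned with the length of the lists.

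At *Muc1* the rank was 4964, 11193 and 7875 for PBRM1 and 6864, 3875 and 8116 for BRG1, and the ranks overlapped. The percentiles had means of 66.7 ± 10.7 and 83.6 ± 5.53 (SD, n = 3 each), a difference of −17.0 (two-sided exact permutation test, p = 0.100, adjusted over 2 genes 0.100). By fold enrichment in place of the q-value the difference was −16.5 (two-sided exact permutation test, p = 0.300), and with lists of equal length it was −7.88 (two-sided exact permutation test, p = 0.500).

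A feature that the choice of genes did not use is the CpG content of the promoter, taken as the observed to expected CpG ratio in the 500 bp on either side of the TSS. The ratio was 0.72 at *Cdh1*, 0.57 at *Krt7* and *Foxa2*, 0.55 at *Krt18*, 0.47 at *Epcam*, 0.42 at *Krt19*, 0.38 at *Krt8* and *Cldn4*, 0.26 at *Muc1* and 0.12 at *Ltf*. The median over 21838 genes with a value was 0.57, so that *Cdh1* lay above it, *Krt7* and *Foxa2* at it after rounding, and the other 7 below it. In the middle class, from 0.35 to 0.65, which held 7 of the 10 genes, 56.0% of all genes had a promoter peak in all 6 replicates, and 1 of the 7, *Krt7*, did. In the same class 82.2% of all genes had a pooled PBRM1 peak and 86.8% a pooled BRG1 peak, and all 7 had both. *Cdh1* was in the high class, where 84.7% of all genes had a peak in all 6 replicates, 97.6% a pooled PBRM1 peak and 98.9% a pooled BRG1 peak. It had both pooled peaks but lacked one in PBRM1 replicate 3. *Muc1* and *Ltf* were in the low class, where 10.1% of all genes had a peak in all 6 replicates, 25.6% a pooled PBRM1 peak and 31.0% a pooled BRG1 peak. Of these 2, *Muc1* had a peak in all 6 and in both pooled lists, at the site near *Mtx1*, and *Ltf* had a pooled BRG1 peak only.

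Other lists of genes with a known compartment gave a scale for these counts. Over all protein-coding genes, 68.7% had a pooled PBRM1 peak and 72.1% a pooled BRG1 peak. In all 6 replicates 51.9% had a peak, and in 1 to 5 of them 18.5%. Among 24 other epithelial genes (junction, protease, splicing and transcription factor genes such as *Grhl2*, *Esrp1* and *Cldn7*), 19 had a pooled PBRM1 peak, 22 a pooled BRG1 peak and 3 a peak in all 6 replicates, and 17 had one in 1 to 5. The highest pooled BRG1 fold enrichment was 10.6 at *Tjp3*, a scaffold of tight junctions, and the lowest 2.90 at *Rab25*, a small GTPase of epithelial vesicle traffic. *Prss8* and *Sprr2f* had no pooled peak. More BRG1 than PBRM1 replicates had a peak at 15 of the 24 genes, beside 15.4% of all genes, and the reverse at none, beside 1.45%. Of the 17 genes with a peak in 1 to 5 replicates these 15 were 88.2%, near the 83.3% of all such genes.

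Among 24 stromal genes, 22 had a pooled PBRM1 peak, 24 a pooled BRG1 peak, and 14 a peak in all 6 replicates, beside 51.9% of all genes. *Vim*, the intermediate filament gene of mesenchymal cells, was among them, with 4.89 for pooled PBRM1 and 5.90 for pooled BRG1. The highest pooled BRG1 fold enrichment was 15.0 at *Nt5e* and the lowest 2.90 at *Col6a1*. The median pooled fold enrichments of the stromal list, 4.08 and 5.09, were close to those of the 10 epithelial markers, 3.97 and 5.07. A difference between the lists was not tested. Their CpG backgrounds differ. Of the stromal genes, 9 have promoters of the low CpG class, and all 9 had a pooled BRG1 peak, beside 31.0% of all genes in that class. Of the 10 epithelial markers 2 are in it, both with a pooled BRG1 peak, and of the 24 other epithelial genes 7, of which 5 had one.

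The list of repressors of epithelial genes shares *Twist1* and *Twist2* with the stromal list. All 6 (*Snai1*, *Snai2*, *Zeb1*, *Zeb2*, *Twist1* and *Twist2*) had a pooled peak of both antibodies, and 4 had one in all 6 replicates. Their median pooled fold enrichments were 5.14 for PBRM1 and 5.50 for BRG1, below the 5.29 and 6.84 of all genes. *Snai2* had the highest pooled fold enrichment, 11.2 for PBRM1 and 11.7 for BRG1, followed by *Snai1* with 8.34 and 10.5. The lowest for BRG1 was *Zeb2* with 3.77. All 6 have promoters of the high CpG class, in which 98.9% of all genes had a pooled BRG1 peak and 84.7% a peak in all 6 replicates.

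**Figure D3:**
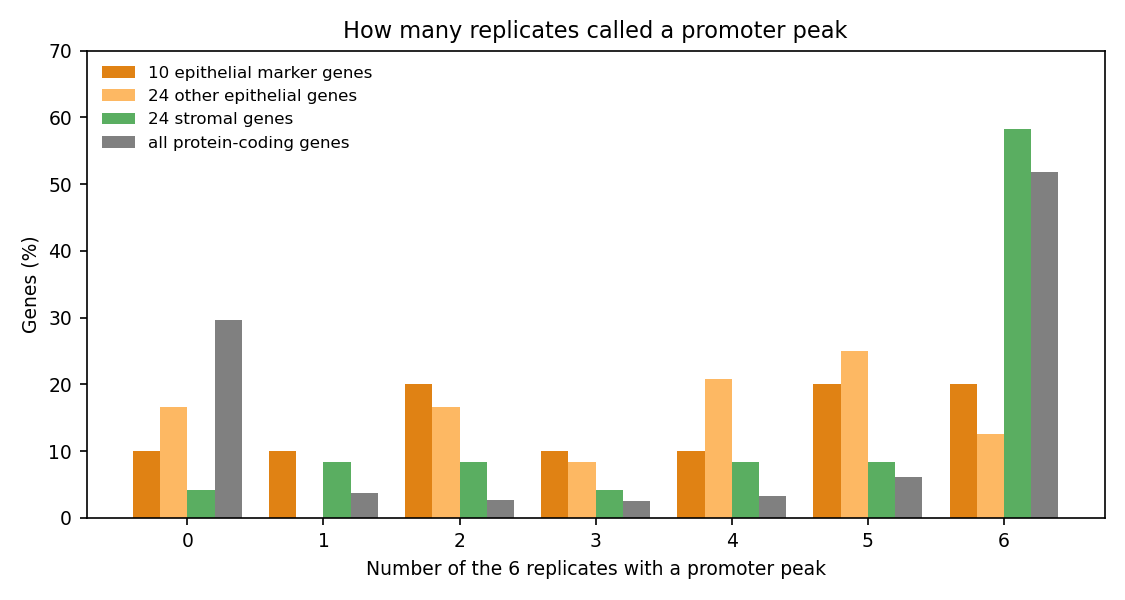
Share of genes (%) by the number of the 6 replicates with a promoter peak, for the 10 epithelial marker genes, 24 other epithelial genes, 24 stromal genes and all protein-coding genes. Both epithelial lists had most of their genes between 1 and 5 replicates (7 of 10 and 17 of 24), whereas 14 of 24 stromal genes and 51.9% of all genes were at 6.

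Genes of other cell types gave both high and low counts. Of 10 endothelial genes, 7 had a pooled PBRM1 peak, 9 a pooled BRG1 peak and 3 a peak in all 6 replicates, with the highest pooled BRG1 value, 9.42, at *Erg*, the lowest, 3.44, at *Cdh5*, and none at *Emcn*. Over 3 replicates each, the endothelial genes had 43.3% of their possible calls with PBRM1 and 73.3% with BRG1, beside 58.7% and 65.4% over all genes. A peak in 1 to 5 replicates stood at 5 of 10, beside 18.5% of all genes. All 5 had it in more BRG1 than PBRM1 replicates, beside 83.3% of all such genes. Of the endothelial genes, 6 have promoters of the low CpG class, and 5 of these had a pooled BRG1 peak. Of 10 immune genes, 3 had a pooled PBRM1 peak, 3 a pooled BRG1 peak and none a peak in all 6, with the highest pooled BRG1 value, 4.75, at *Adgre1* and the lowest, 3.67, at *Laptm5*. Among those with no pooled peak were *Ptprc*, *Cd68*, *Csf1r*, *Itgam* and *Cd3e*. Of 10 hepatocyte genes, 2 had a pooled peak of either antibody and none a peak in all 6, with the highest pooled BRG1 value, 8.96, at *Apoa1*. All immune and all hepatocyte genes had promoters of the low CpG class, in which 31.0% of all genes had a pooled BRG1 peak, so that their counts and those of the epithelial markers, mostly of the middle class, rest on different backgrounds.

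**Figure D4:**
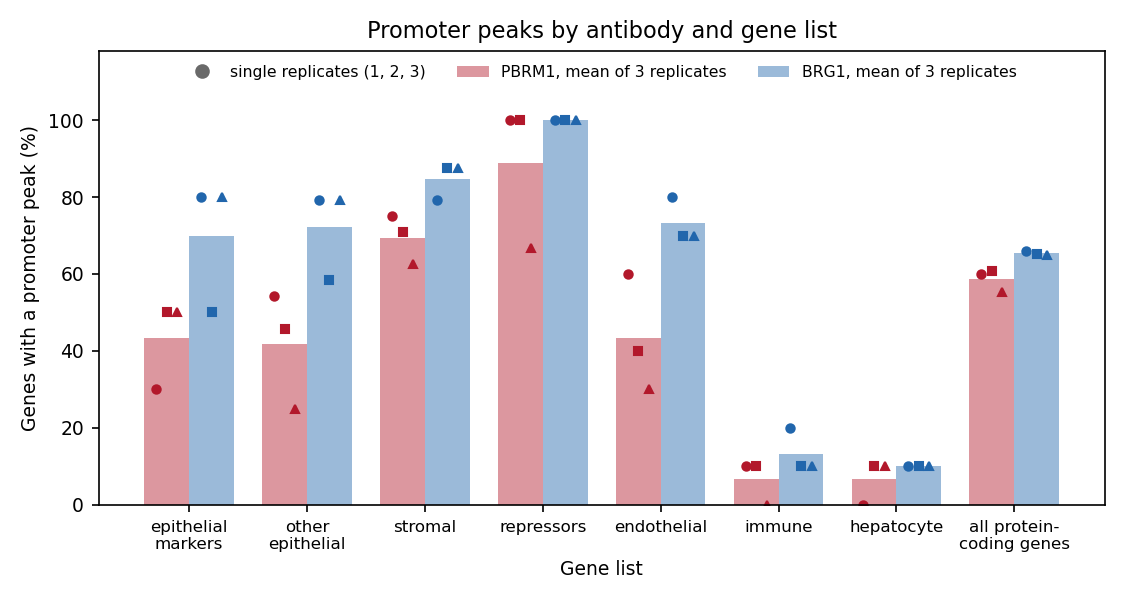
Share of genes (%) with a promoter peak in each gene list, with bars for the mean of the 3 replicates of PBRM1 (red) and BRG1 (blue) and symbols for the single replicates. At the epithelial markers the means were 43.3% and 70.0%, beside 58.7% and 65.4% over all protein-coding genes.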

How the data were processed

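ChIC-Seq with antibodies to PBRM1 and BRG1 was analysed in stromal cells cultured from the WT mouse uterus on D4, grouped by the labels into 3 replicates per antibody. The 2 IgG libraries were not analysed here. Per the methods, the authors trimmed read pairs with cutadapt, aligned them to mm10 with Bowtie2, filtered on mapping quality, removed duplicates, and ran MACS 2.2.7.1 on every replicate and on the fragments of an antibody pooled. Per the file headers, the q-value cutoff was 0.05, the regional background 10000 bp, and no control entered. Each deposited list gives for each peak a fold enrichment ratio, a pileup signal and a −log10 q-value, which the authors' caller computed from the fragments of that list. Ratios of different lists are not on one scale, and a peak called against local background can also mark chromatin that yields fragments with any antibody. Depth was 8868777 to 16505239 fragments per replicate, and pooled lists, with 38144108 and 37842839, reach weaker sites.

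Peaks were intersected with promoter windows of all GENCODE M21 transcripts (2000 bp on either side, minimum overlap 1 bp) in Python 3.11.15 with pandas 2.3.3 and numpy 2.4.6. Tests used scipy 1.17.1 and figures matplotlib 3.10.9. The representative TSS, called the TSS of a gene, is the most upstream among its basic protein-coding transcripts. Antibodies were compared with two-sided exact permutation tests, for single genes only where all 6 replicates had a peak, with Benjamini-Hochberg adjustment. Sequences came from GRCm38.p6, and all 10 RefSeq promoters of the genes equalled the genome. The overlap and motif steps, tested on simulated data, found all 200 planted promoter peaks and all 200 planted motifs, with 0 wrong calls.

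The 10 genes and the other lists were chosen with earlier results of these data known. Genes named were all 10, from each other list those with the highest and lowest pooled BRG1 value and those without a peak (of the hepatocyte genes only the highest is named, and some names are not reported here), and neighbouring genes with a TSS within 2000 bp of a promoter peak. *Vim*, *Grhl2*, *Esrp1*, *Cldn7* and the other repressors are named beyond this rule, as members of their lists and after their values were seen. Alternatives were a −log10 q-value of at least 5, windows of 1000 and 500 bp, basic transcripts, the summit in place of the whole peak, the gene nearest to the summit, pooled peaks found in all 3 replicates, the 10000 strongest peaks, percentiles by fold enrichment, each replicate left out and a replicate block. Lists cut to the length of the shortest were added after the data were seen.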

Additional observations from a re-analysis of the deposited data

How the results depend on the processing

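The count of epithelial marker genes with a promoter peak depended on the threshold and the window, and the share of all genes under the same setting is given in parentheses. For pooled PBRM1 it fell from 9 to 5 at a −log10 q-value of at least 5 (64.4%) and to 2 with pooled peaks found in all 3 replicates (51.3%). For pooled BRG1 it fell from 10 to 6 with windows of 500 bp (69.0%) and to 5 with peaks found in all 3 replicates (60.8%). The count in all 6 replicates fell from 2 to 1 at a −log10 q-value of at least 5 (42.5%), with windows of 1000 bp (50.7%) or 500 bp (49.2%) and for the gene nearest to the summit (43.6%), and to 0 among the 10000 strongest peaks of each replicate (30.1%). The other alternatives for these counts stayed within 1.5 times. The largest fall among them was that of pooled PBRM1 from 9 to 6 with windows of 500 bp, for which the share of all genes is not given. With a replicate left out, the count in all remaining replicates was 2 to 3, with *Krt8* added without PBRM1 replicate 1 and *Cdh1* without PBRM1 replicate 3. The share of all genes was not computed for these settings. It cannot be below the 51.9% found with all 6, since fewer lists have to hold a peak.

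The difference in the share of all genes with a promoter peak kept its sign, from −5.08 to −7.75 with a replicate left out, but was −1.07 among the 10000 strongest peaks and −1.56 with lists of equal length, an alternative added after the data were seen (exact permutation tests, p = 0.400 each). With lists of equal length the *Krt7* difference reversed to 12.7. The *Krt7* and *Muc1* differences ranged from −7.21 to −24.8 and from −12.4 to −22.8 with a replicate left out. No test here could pass 0.05. With a replicate block, the exact permutation test gave −6.74, −18.0 and −17.0, each with p = 0.250, the smallest possible. Correlations of deviations between PBRM1 and BRG1 replicates of the same number were −0.04, −0.01 and −0.01 over 13093 peaks, and those of differing number −0.02 to 0.03. Whether shared cells would raise this measure is not known, so it cannot say whether the replicates were paired.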
